A study of Homo sapiens with 6 samples.

Results

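The gene set described here holds 34 genes for chaperones of the endoplasmic reticulum (ER), disulphide-forming enzymes, ER-associated degradation, and the sensors and transcription factors of the unfolded protein response. Its members are a list of gene symbols drawn up by function, with earlier results of these data known, and all 34 had a row among the 18539 genes of the deposited table. A375, an established human malignant melanoma line, was compared after lentiviral delivery of a control hairpin (shControl, 3 libraries) or of one hairpin against MMP9, a secreted matrix metalloproteinase (shMMP9, 3 libraries). Both groups were grown with 10% fetal bovine serum, infected in the presence of 8 µg/ml polybrene and selected for 2 weeks with 2 µg/ml puromycin, so the controls share the virus and the drug. The vector was pLKO.1. With a single MMP9 hairpin, an effect of that sequence on other transcripts cannot be told apart from loss of MMP9. No label states that replicates were separate cultures, so p-values measure the spread between these libraries, which may be technical.

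Secreted and membrane proteins fold in the ER with the help of HSPA5 (BiP), an HSP70 chaperone, and of the lectin and disulphide isomerase systems. When unfolded proteins accumulate, the sensors IRE1 (ERN1), PERK (EIF2AK3) and ATF6 are activated. IRE1 splices the XBP1 message, ATF6 is cut to release a transcription factor, and PERK slows translation while favouring synthesis of ATF4. Spliced XBP1 and cut ATF6 switch on chaperone and degradation genes, and ATF4 switches on amino acid genes and CHOP (DDIT3). ER-associated degradation sends misfolded proteins through a membrane complex built around SEL1L and the ubiquitin ligase SYVN1 to the cytosolic proteasome. Splicing, cleavage and phosphorylation are not measured by gene-level RNA values.

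Each value below is a count per gene and library after scaling of all libraries to one upper quartile, called a scaled count. A log2 change is the difference of mean log2(scaled count + 1), shMMP9 minus shControl, tested with limma over 17194 genes. A gene is said to have risen or fallen where its p-value, adjusted over all those genes by the Benjamini-Hochberg method, was under 0.05. In bulk RNA, fewer cells of a type and less RNA per cell cannot be told apart.

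Some of these genes share a promoter sequence, the ER stress response element (ERSE), known as a binding site of NF-Y with ATF6 or XBP1. RefSeq promoters on GRCh38.p14 were found for 31 of the 34 members (not for DERL1, PDIA3 and SEC24D). The 250 bases before the first listed start of each gene were searched on both strands for exact letters. The ERSE letters, CCAAT and CCACG parted by 9 free bases, stood in 7 of these 31 promoters (22.6%) and in 22 of 27305 promoters in all (0.0806%). The shorter form ERSE-II, ATTGG and CCACG parted by 1 free base, stood in 3 members (9.68%) and in 14 of all promoters (0.0513%). Either form stood in 10 of the 31 member promoters, and 21 held neither. The list was drawn up by function, so these shares describe the list and are not a result of the RNA data. Among 174 promoters of other ER proteostasis genes, 0 held either form. The sites of 5 members with an ERSE and 2 with an ERSE-II are shown, since these genes include both clear rises and members that were not called, with the fixed letters in capitals. For CALR, CRELD2 and HYOU1 the match lies on the strand opposite to the gene, so the letters read as the reverse complement.
HSPA5: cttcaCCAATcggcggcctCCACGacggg
XBP1: gctggCCAATcgcggagggCCACGaccgt
CANX: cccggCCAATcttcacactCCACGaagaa
CRELD2: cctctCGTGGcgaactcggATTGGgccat
CALR: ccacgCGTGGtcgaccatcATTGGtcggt
HERPUD1: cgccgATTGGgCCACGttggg
HYOU1: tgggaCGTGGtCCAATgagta

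The printed stretches lie at chr9:125241386-125241414 on the minus strand for HSPA5 and at chr22:28800598-28800626 on the minus strand for XBP1. For CANX the stretch is chr5:179698773-179698801 on the plus strand, which overlaps an annotated CANX exon in GENCODE release 29. Those of CRELD2 (chr22:49918549-49918577), CALR (chr19:12938379-12938407) and HERPUD1 (chr16:56932020-56932040) are on the plus strand, and that of HYOU1 (chr11:119057269-119057289) is on the minus strand. Counted from the RefSeq start, the HSPA5 element spans -66 to -48 and the XBP1 element -52 to -34. ERSE matches also stood in ERO1B (1 match) and HSP90B1 (2 matches), and an ERSE-II in SDF2L1. HYOU1 held 2 ERSE-II matches and, overlapping one of them, the UPRE letters TGACGTGG, which DNAJC10 also held (6.45% of member promoters and 0.667% of all). The CRE-like letters TGACGTCA were in 0 of the 31 (1.77% of all). The CARE letters, TGATG and AA parted by 1 free base, were in HERPUD1 (3.23% of member promoters and 3.19% of all). A match is a stretch of letters and not a measured binding site.

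As a check of the labels, MMP9 stood at 26.1, 24.3 and 28.7 scaled counts in the shControl libraries and at 16.2, 14.6 and 17.1 in the shMMP9 libraries, and it fell by 0.69 in log2 units (SE 0.0847, adjusted p = 1.25e-05). Its level in shMMP9 was thus lower in every library, and not absent. The libraries held an estimated 21854123 to 28005552 reads over listed genes, and the members had 226 to 34913.1 estimated reads each. Between libraries of a group, chi-square per gene was 2.51 to 14.1, with the 2 highest values (9.72 and 14.1) for shControl replicate 1 against the other shControl libraries. Mitochondrially encoded genes took 1.64 to 1.79% of reads in shControl and 0.617 to 0.708% in shMMP9. Of 8 melanocyte lineage markers 6 were listed, with a summed level of 404 to 442 in shControl and 804 to 883 in shMMP9. SOX10 made up most of it, with means of 378 and 785, and S100B also rose, from 9.46 to 28.1 (adjusted p = 5.77e-09). The lineage regulator MITF fell, from 35.5 to 27.7 (adjusted p = 0.000666). The pigment genes TYR and DCT had no row, and MLANA, PMEL and TYRP1 had means of 1.76 or less. The 8 fibroblast markers, all listed, summed to 49.3 to 55.7 in shControl and 22.4 to 25.7 in shMMP9, and the 6 listed of 7 endothelial markers to 55.9 to 64.8 and 22.1 to 25.7. All 5 tested fibroblast markers fell, but the endothelial list went both ways, with 2 rises (KDR from 6.44 to 16.1, PECAM1 from 1.19 to 2.05) and 2 falls, of which TIE1 (from 49.9 to 4.56) set the sum. The 3 listed of 7 leukocyte markers (PTPRC and CD3E had no row) summed to 114 to 135 and 98.0 to 101, and the 3 listed of 7 keratinocyte markers (TP63 had no row) to 70.0 to 81.6 and 127 to 136. The leukocyte sum was mostly CD68, which fell from 121 to 92.4, while LYZ rose from 2.20 to 6.83. Single markers are named here after their values were seen. The part of these shifts in the results below was not tested.

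Most of the chaperone and degradation genes among the members were higher in shMMP9, with ratios of means up to 1.98. Of the 34 members 22 rose and 1 fell, against 25% rising and 32.5% falling among all 17194 genes tested (57.5% called in either direction). Their median log2 change was 0.33 on the log2 scale, beside -0.05 for all genes tested and -0.02 for the 9923 genes within the members' range of mean level, of which 30.5% rose and 34.3% fell. Libraries of the groups did not overlap for 24 members, 23 of them higher and 1 lower. Of all 17194 genes tested 62.7% did not overlap, 4747 of them higher and 6030 lower. Of the 9923 genes within the members' range, 3262 were higher and 3619 lower without overlap. No member reached a log2 change of 1. Together the members held 0.555, 0.556 and 0.555% of estimated reads in the shControl libraries and 0.699, 0.703 and 0.687% in the shMMP9 libraries. Each shMMP9 library lay above each shControl library in this share. The same held for most lists of other ER genes described below, such as COPII and ER exit (0.277 to 0.278% and 0.291 to 0.298%). The share was lower in each shMMP9 library for the chaperones outside the members and for the PERK, ATF4 and CHOP arm. In summed scaled counts the members stood at 4969 to 5064 in shControl and at 5957 to 6092 in shMMP9. All 22 members that rose kept that call under each of 16 alternative settings, and ERO1A kept its fall. Without shControl replicate 1 the count of rises was 23.

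**Figure D1:**
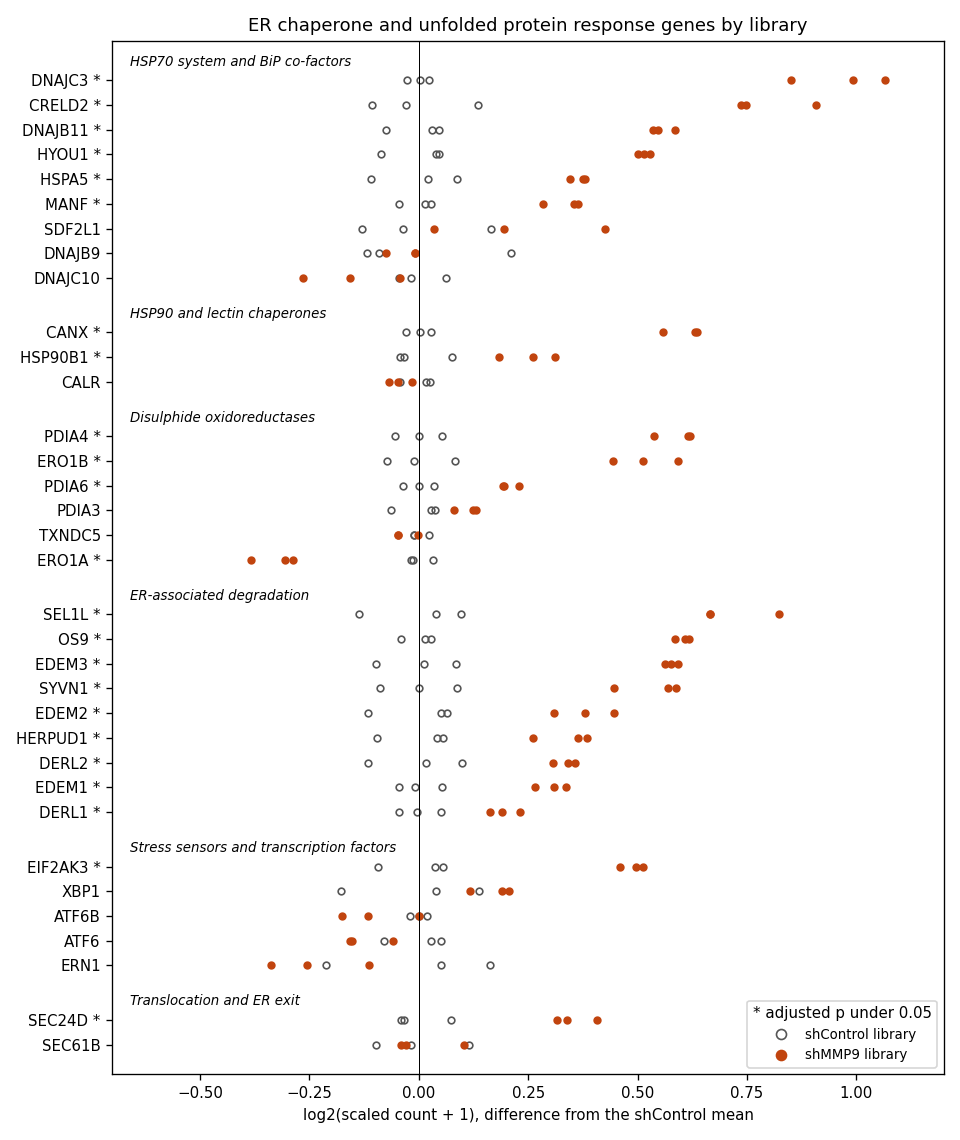
Each row is 1 gene and each point 1 library, placed at its log2(scaled count + 1) minus the mean of the 3 shControl libraries (open points shControl, filled points shMMP9, asterisks mark an adjusted p under 0.05). All 9 degradation genes sit to the right in shMMP9, ERO1A is the single member that fell, and 4 of the 5 sensors and factors have overlapping libraries.

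Of the HSP70 chaperone system 6 of 9 members rose and 0 fell. Beside this and each role below, 25% of all genes tested rose and 32.5% fell. HSPA5 was read at 498, 570.5 and 545 scaled counts in shControl and at 697, 699 and 683 in shMMP9, a log2 change of 0.37 (SE 0.0561, adjusted p = 9.24e-05). The lowest shMMP9 library lay well above the highest shControl library. HYOU1, a large HSP70 relative that exchanges nucleotide on HSPA5, was at 223, 245 and 243 in shControl and at 342, 339 and 335 in shMMP9 (log2 change 0.52, SE 0.0494, adjusted p = 1.21e-06). The groups were again fully apart, with less spread in shMMP9 (SD 3.28) than in shControl (SD 12.2).

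DNAJC3, a J-domain partner of HSPA5 also known as an inhibitor of PERK-like kinases, changed most among the members. Its levels were 44.0, 43.1 and 44.7 in shControl and 88.4, 93.0 and 80.1 in shMMP9, a ratio of means of 1.98 and a log2 change of 0.97 (SE 0.0601, adjusted p = 1.63e-08). DNAJC3 (ENSG00000102580.14) is the only member on chromosome 13, at 95677139 to 95794989 on GRCh38. Genes of that chromosome with a mean scaled count of 5 or more had a median log2 change of 0.28, which is 0.31 higher than over all chromosomes, and 119 of these 198 genes rose. DNAJC3 exceeded this shift, whose part in its value was not tested. DNAJB11, another J-domain partner that binds unfolded chains, was at 42.9, 46.8 and 46.3 in shControl and at 68.5, 66.1 and 66.6 in shMMP9 (log2 change 0.56, adjusted p = 1.49e-06).

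CRELD2 and MANF, ER proteins that can also be secreted, both rose. CRELD2, an ER protein with disulphide isomerase activity, was at 12.2, 14.6 and 12.96 in shControl and at 22.7, 22.9 and 25.7 in shMMP9, with a log2 change of 0.80 (SE 0.0869, adjusted p = 4.16e-06), the second largest of the members. MANF, which stabilises HSPA5 complexes, rose from 80.9 ± 2.19 to 102 ± 3.12 (SD, n = 3; log2 change 0.33). The groups were apart for both genes.

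The remaining members of this system were not called. DNAJB9, a J-domain co-factor that represses IRE1 and a classical target of spliced XBP1, was at 15.2, 12.2 and 11.9 in shControl and at 12.9, 12.9 and 12.3 in shMMP9, a difference of -0.03 with a 95% confidence interval from -0.25 to 0.19. SDF2L1, which helps HSPA5 and DNAJB11 keep chains soluble, stood at 22.3 ± 2.49 and 26.2 ± 3.73 (log2 change 0.22, adjusted p = 0.0823). DNAJC10, a reductase that helps unfold chains for degradation, stood at 54.9 ± 2.16 and 49.3 ± 3.84 (log2 change -0.16, adjusted p = 0.0523). Libraries of the groups overlapped for all 3. SDF2L1 passed the test when shControl replicate 2 (adjusted p = 0.025) or shMMP9 replicate 1 (0.0295) was left out, with the replicate number as a block (0.0491), and under the other 2 scalings. Over the 16 alternatives its adjusted p ran from 0.025 to 0.354. DNAJC10 was lower past the threshold only when shMMP9 replicate 2 was left out (adjusted p = 0.0193, range over the alternatives 0.0193 to 0.221).

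Of the HSP90 and lectin chaperones 2 of 3 rose and 0 fell. CANX, the membrane-bound calnexin, was at 467, 458 and 476 scaled counts in shControl and at 726, 723 and 688 in shMMP9, a log2 change of 0.61 (SE 0.0484, adjusted p = 1.91e-07). CALR, its soluble relative calreticulin, was at 1089.6, 1134 and 1142 in shControl and at 1111, 1086 and 1070.4 in shMMP9, a difference of -0.04 whose 95% confidence interval ran from -0.16 to 0.07. The CANX groups were far apart (95% confidence interval 0.50 to 0.71) and the CALR groups overlapped. The difference between the changes of the 2 genes was not tested. Both promoters hold an ERSE, as printed above. HSP90B1 (GRP94), the HSP90 of the ER, rose by a smaller amount, from 591, 547 and 544 to 672, 695 and 636 (log2 change 0.25, adjusted p = 0.00147). Its processed pseudogene HSP90B2P was listed at a mean of 0.430 in shControl and 0.964 in shMMP9, far below the parent gene.

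Per kilobase of annotated exons, CALR had the highest level of the members, at 413 ± 10.4 scaled counts per kb in shControl and 401 ± 7.45 in shMMP9. HSPA5 (138 ± 9.40) and HSP90B1 (119 ± 5.59) followed in shControl, with no overlap of their libraries. PDIA3 (75.5 ± 2.90) and CANX (74.9 ± 1.45) came next and did not differ beyond their spread. In shMMP9 CANX, at 114 ± 3.38 per kb, and PDIA4, at 88.0 ± 2.86, stood above PDIA3, at 81.5 ± 1.56. The order at the top, CALR, HSPA5 and HSP90B1, was the same in both groups. In shControl the 2 weakest members were the sensors EIF2AK3, at 2.04 ± 0.123, and ERN1, at 1.002 ± 0.142 per kb. ATF6 (8.57 ± 0.410) and ATF6B (12.5 ± 0.166) stood in the middle of that order. In shMMP9 DNAJC10 (2.26 ± 0.176), with 21.8 kb of annotated exons, stood below EIF2AK3 (2.94 ± 0.0570) (all SD, n = 3). The annotation used for counting is not given in the sources used here, so levels per kb are uncertain.

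**Figure D2:**
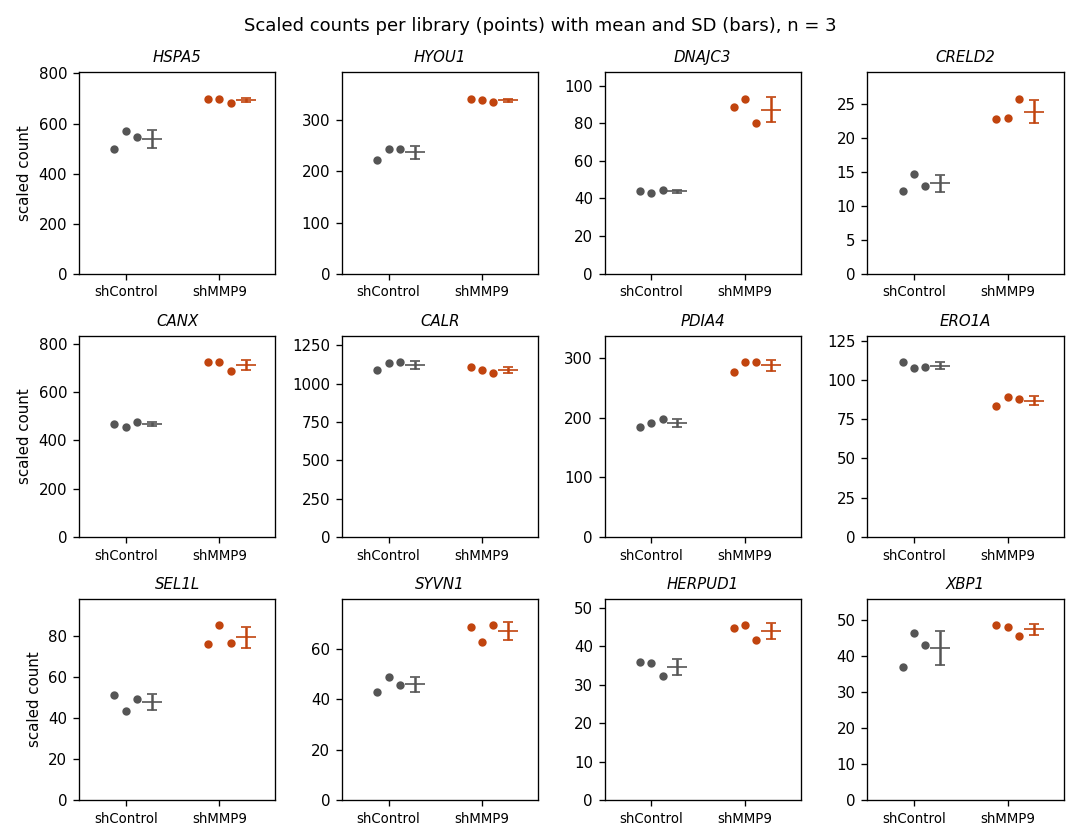
Scaled counts (vertical axes, starting at 0) of 12 members in each of the 3 shControl and 3 shMMP9 libraries, with bars for mean and SD. HSPA5, HYOU1, DNAJC3, CRELD2, CANX, PDIA4, SEL1L, SYVN1 and HERPUD1 are higher in every shMMP9 library, ERO1A is lower in each, and the libraries of CALR and XBP1 overlap.

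Of the disulphide enzymes 3 of 6 rose and 1 fell. PDIA4, a disulphide isomerase found in HSPA5 complexes, was at 184, 191 and 198 in shControl and at 277, 293 and 294 in shMMP9 (log2 change 0.59, SE 0.0485, adjusted p = 2.64e-07). PDIA6, which also regulates the sensors, rose from 264 ± 6.60 to 304 ± 4.35 (log2 change 0.21, adjusted p = 0.00155). PDIA3, the isomerase that works with calnexin and calreticulin, stood at 319.9 ± 12.3 and 346 ± 6.60, a difference of 0.11 (adjusted p = 0.0611) with groups that did not overlap. It passed the test when shControl replicate 1 was left out (adjusted p = 0.0188) and under both other scalings, and its adjusted p over the alternatives ran from 0.00735 to 0.239. TXNDC5, a thioredoxin-domain isomerase, stood at 162 ± 2.19 and 158 ± 2.84 (adjusted p = 0.56). Its exons are shared over 60.6% of their length with the readthrough gene BLOC1S5-TXNDC5, so its level is uncertain.

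The 2 oxidases that pass disulphides to these isomerases moved in opposite directions. ERO1A, the form known to respond to hypoxia, was at 112, 108 and 108 in shControl and at 83.3, 89.2 and 88.0 in shMMP9, and fell by 0.33 in log2 units (SE 0.0485, adjusted p = 7.3e-05). ERO1B, the form known as a target of the unfolded protein response, was at 18.9, 16.9 and 17.7 in shControl and at 27.4, 25.8 and 24.6 in shMMP9 (log2 change 0.52, SE 0.0747, adjusted p = 5.7e-05). Each pair of groups was fully apart. The ERO1B promoter holds an ERSE and that of ERO1A holds neither form. Whether this bears on their changes was not tested.

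ER-associated degradation was the role in which every member rose, 9 of 9. Of the 43 other degradation factors described below, 18 rose and 10 fell. SEL1L, the adaptor that scaffolds the ligase complex, was at 51.0, 43.3 and 48.9 in shControl and at 76.1, 85.1 and 76.1 in shMMP9 (log2 change 0.72, SE 0.0686, adjusted p = 1.15e-06). SYVN1 (HRD1), the ligase itself, was at 43.0, 48.7 and 45.8 in shControl and at 68.5, 62.8 and 69.4 in shMMP9 (log2 change 0.53, adjusted p = 7.52e-06). FAU, a ribosomal protein gene at means of 351 and 414 that rose by 0.24, shares 7.24% of the exon length of SYVN1 on the same strand, and its part in the SYVN1 value was not tested. All shMMP9 libraries of both genes lay above all shControl libraries. OS9, the lectin that hands glycoproteins to SEL1L, was at 98.8, 104 and 103 in shControl and at 153, 156 and 157 in shMMP9, with a log2 change of 0.60 (SE 0.0455, adjusted p = 1.12e-07).

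The mannosidase-like EDEM proteins mark glycoproteins for this route. EDEM3 rose from 62.3, 54.8 and 59.2 to 88.0, 89.0 and 87.1 scaled counts, that is by 0.58 in log2 units (adjusted p = 1.23e-06). EDEM2 and EDEM1 rose by 0.38 and 0.30. HERPUD1, a membrane organiser of the complex and a strong responder to ER stress, was at 36.0, 35.7 and 32.4 in shControl and at 44.9, 45.6 and 41.7 in shMMP9 (log2 change 0.34, adjusted p = 0.000527). DERL2 and DERL1, rhomboid-like channel components, rose by 0.33 and 0.20, the latter with an adjusted p of 0.00493. The count of 9 was the same under each of the 16 alternatives.

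Of the sensors and transcription factors 1 of 5 rose and 0 fell. EIF2AK3 (PERK) rose, from 11.5, 10.3 and 11.4 in shControl to 15.6, 16.2 and 16.0 in shMMP9 (log2 change 0.49, SE 0.0838, adjusted p = 0.000234), with groups fully apart. XBP1 was at 37.1, 46.4 and 43.2 in shControl and at 48.7, 48.1 and 45.7 in shMMP9, a difference of 0.17 (adjusted p = 0.0658) with overlapping groups and most of the spread in shControl. ERN1 (IRE1) stood at 10.9 ± 1.54 and 9.05 ± 0.794 (log2 change -0.24, adjusted p = 0.092). ATF6 stood at 67.6 ± 3.24 and 62.0 ± 2.45 (log2 change -0.12, adjusted p = 0.0759), and its relative ATF6B at 45.5 ± 0.604 and 42.5 ± 2.71 (log2 change -0.10, adjusted p = 0.186). With shControl replicate 2 left out, XBP1 was higher past the threshold (0.24, adjusted p = 0.0136), and ERN1 (-0.34, adjusted p = 0.0212) and ATF6 (-0.16, adjusted p = 0.0322) were lower past it. XBP1 also passed under both other scalings. Over the alternatives the adjusted p ran from 0.0136 to 0.234 for XBP1, from 0.0212 to 0.27 for ERN1 and from 0.0322 to 0.353 for ATF6. ATF6B was called under none of the 16 alternatives.

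The last 2 members serve entry to and exit from the ER. SEC24D, a cargo-binding subunit of the COPII coat, was at 39.4, 39.3 and 42.6 in shControl and at 51.3, 53.9 and 50.5 in shMMP9 (log2 change 0.35, adjusted p = 0.000159). SEC61B, a subunit of the translocation channel, stood at 44.8 ± 3.45 and 45.1 ± 2.58, a difference of 0.01 with a 95% confidence interval from -0.13 to 0.16.

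Members were then divided by the stress elements of their promoters. Of the 10 members with an ERSE or ERSE-II 7 rose, 0 fell and 3 were not called, with a median log2 change of 0.35. Of the 21 members whose promoter held neither, 13 rose and 1 fell, with a median of 0.33. Outside the gene set, 15 tested genes held either element, and of these 4 rose and 3 fell, with a median of 0.01. For comparison, 27.4% rose and 34.0% fell among all 11514 tested genes whose promoter held neither element, with a median of -0.04. DNAJC3, SEL1L, OS9 and PDIA4 were among the largest rises with neither set of letters in the window searched. Near matches and other starts of these genes were not searched, so an element there would be missed.

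The wider machinery of the ER moved in both directions. Of 213 other ER proteostasis genes in 8 lists, 207 were in the table and 206 were tested, of which 66 rose (32.0%) and 56 fell (27.2%), beside the 25% and 32.5% of all genes. Their median log2 change was 0.03. Up to 4 genes of each list are named below, those with the smallest adjusted p.

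**Figure D3:**
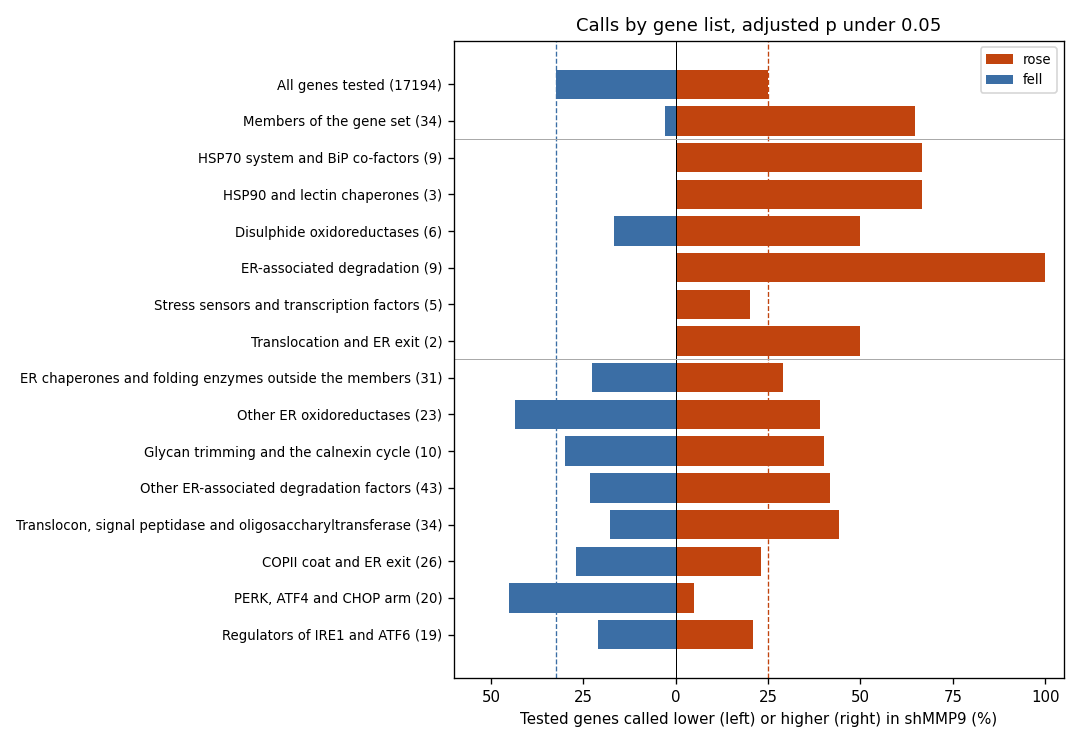
Bars give the percentage of tested genes called higher (right) or lower (left) in shMMP9 for all genes, the members, their 6 roles and the 8 lists of other ER genes, with the number tested in brackets and dashed lines at the values of all genes (25% and 32.5%). The members reach 64.7% higher and 2.94% lower, while the PERK, ATF4 and CHOP list has 5% higher and 45% lower.

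Of the 20 genes listed for the PERK, ATF4 and CHOP arm, 1 rose, 9 fell and 10 were not called, with a median of -0.14. NUPR1, a stress-induced chromatin protein gene and ATF4 target, went from 13.8 ± 0.399 to 0.519 ± 0.275 scaled counts and fell by 3.30 in log2 units (adjusted p = 3.28e-10). With so few reads left in shMMP9 the size depends on the setting, from -4.84 with limma-voom to -1.98 with a pseudocount of 4, and the gene was called lower under each of the 16 alternatives. ASNS, asparagine synthetase, went from 101 ± 9.55 to 45.5 ± 1.19 (-1.13). CEBPG, a dimer partner of ATF4, had a log2 change of -0.48, and PPP1R15A (GADD34), which restores translation after PERK activity, one of -0.34. The gene that rose was ATF3, at 0.39. Chosen after their values were seen, ATF4 itself had a log2 change of -0.24 (adjusted p = 0.000436) and TRIB3 one of -0.28. DDIT3, which encodes CHOP, stood at 16.3 and 19.3 and was not called (0.25, adjusted p = 0.145). The count of rises was 2 without shControl replicate 1, without shControl replicate 2, with the replicate number as a block and under both other scalings.

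**Figure D4:**
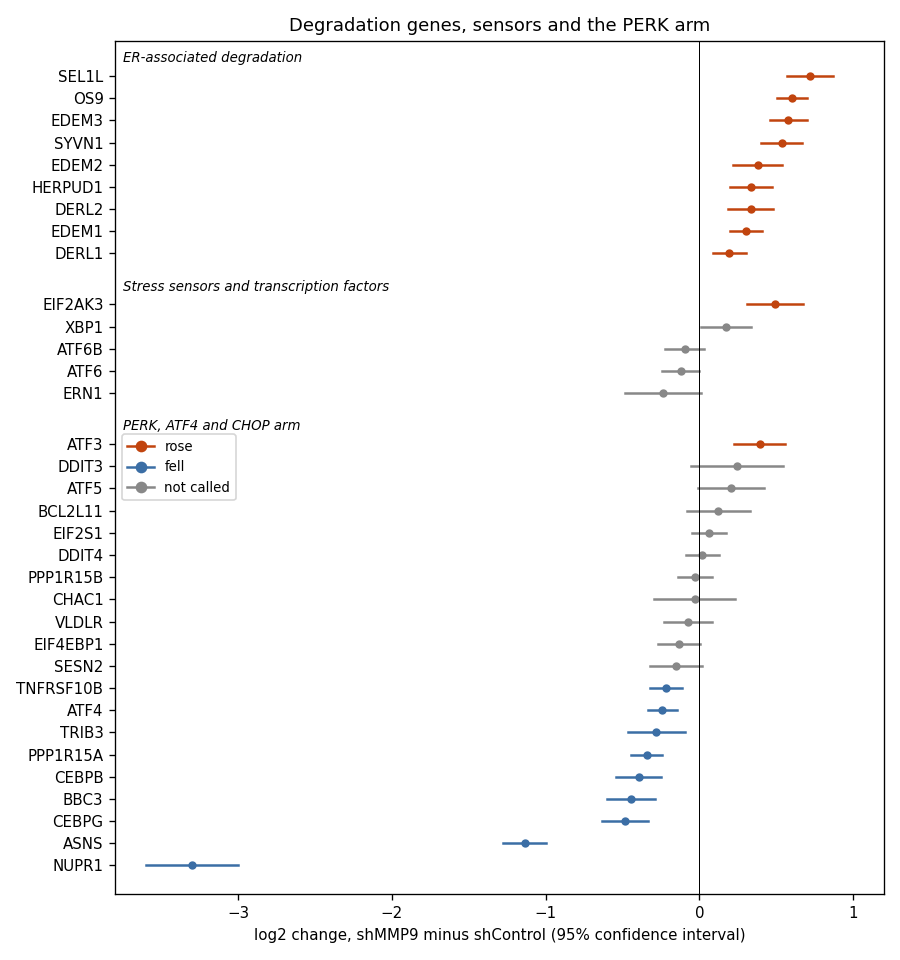
Points are log2 changes, shMMP9 minus shControl, and lines their 95% confidence intervals, for the 9 degradation members, the 5 sensors and factors, and the 20 genes of the PERK, ATF4 and CHOP arm. Every degradation gene lies to the right of 0, whereas 9 genes of the PERK arm have intervals wholly to the left (blue), down to NUPR1 at -3.30.

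Among 43 other degradation factors 18 rose, 10 fell and 15 were not called, with a median of 0.07. SPPL2A, an intramembrane protease, went from 46.2 ± 0.195 to 83.9 ± 4.02 (a log2 change of 0.85), UBXN4, which recruits the segregase VCP to the ER, rose by 0.70 and AUP1, which brings a ubiquitin-conjugating enzyme to the SYVN1 complex, by 0.62. The deubiquitinase gene USP25 had a log2 change of -1.20. Chosen after their values were seen, VCP and its cofactors UFD1 and NPLOC4 rose by 0.35, 0.38 and 0.25, and the complex members SELENOS and FAM8A1 by 0.55 and 0.43, while the ubiquitin-conjugating enzyme gene UBE2G2 (-0.42) fell. These picks are mostly rises and do not stand for the list.

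In the translocon, signal peptidase and oligosaccharyltransferase list 15 of 34 rose and 6 fell, with a median of 0.13. MAGT1, an oxidoreductase of the oligosaccharyltransferase, rose by 0.78, and the signal peptidase subunits SPCS2 and SPCS3 by 0.55 and 0.51. SSR3, a subunit of the translocon-associated complex, went the other way, from 225 ± 12.4 to 125 ± 8.79 (-0.84).

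Of the other oxidoreductases 9 of 23 rose and 10 fell. TMX4, a transmembrane thioredoxin, went from 70.8 ± 3.70 to 264 ± 3.76, a log2 change of 1.88 (adjusted p = 4.69e-12), above that of any member. TMX2, of the same family, rose by 0.56. PDIA5, a relative of the members PDIA3, PDIA4 and PDIA6, had a log2 change of -1.07, and the sulphydryl oxidase gene QSOX1 one of -0.83.

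Of 31 chaperones and folding enzymes outside the members 9 rose and 7 fell (11 without shControl replicate 1). LMAN1, a cargo receptor for glycoproteins, went from 246 ± 8.08 to 155 ± 3.91 (-0.67). It lies on chromosome 18, where genes with a mean scaled count of 5 or more had a median of -0.45 and 126 of 170 fell. The part of that shift in the LMAN1 value was not tested. FKBP10, a prolyl isomerase of collagen folding, went from 460 ± 11.1 to 296 ± 4.90 (-0.63). POFUT2, which adds fucose to thrombospondin repeats, had a log2 change of -0.60, and CNPY2, a saposin-like ER protein gene, rose by 0.46. In glycan trimming 4 of 10 rose and 3 fell. UGGT1, which returns misfolded glycoproteins to calnexin, rose by 0.25 and the weakly expressed mannosidase gene MAN1C1 by 1.25 (0.77 with a pseudocount of 4, 1.61 with limma-voom), while MOGS, the first glucosidase, and MAN1A1 had values of -0.30 and -0.57.

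In the COPII and ER exit list 6 of 26 rose and 7 fell. The count of rises was 11 without shControl replicate 1 and 11 and 12 under the other scalings. SEC31A, a subunit of the outer coat, went from 117 ± 5.11 to 75.6 ± 1.79 (-0.62), and the cargo receptor gene TMED2 rose by 0.38. KDELR1 and KDELR3, receptors that return escaped chaperones with a KDEL-type ending such as HSPA5, HSP90B1 and CALR, had log2 changes of -0.26 and -0.36. The third receptor gene, KDELR2, chosen after its value was seen, had one of -0.22. All 3 fell. Among regulators of IRE1 and ATF6 4 of 19 rose and 4 fell. The ATF6-like factors CREB3L2 and CREB3 rose by 0.81 and 0.40, and CREB3L1, of the same family, had a log2 change of -1.44 from a mean of 4.75 (-0.77 with a pseudocount of 4, -2.08 with limma-voom). WFS1, which restrains ATF6, had one of -0.75.

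Reads shared between genes limit some of these values. Exons of 19 members overlap exons of another annotated gene, in 16 cases one on the opposite strand, and the strand setting of the counting is not given in the sources used here. For PDIA6 the overlap with ATP6V1C2 covers 25.2% of exon length, and ATP6V1C2 was listed at means of 1.94 and 1.32 scaled counts. The part of this overlap in the PDIA6 value was not tested. Opposite-strand overlaps also cover 14.4% of exon length in EIF2AK3 (AC104134.1), 13.5% in OS9 (AC025165.2) and 14.8% in PDIA3 (ELL3). Their part in the values of these members was not tested. The pseudogene PDIA3P1 was listed at 9.12 and 7.61, beside 319.9 and 346 for PDIA3.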

How the data were processed

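RNA of 3 shControl and 3 shMMP9 libraries was analysed, with groups and replicate numbers from the titles. The authors used STAR 2.6.1d and Partek with hg38, per the submitters' processing notes; for the counting method, annotation, strand and kit, the sources used here give nothing. The deposited values are on a log2 scale: 2 to that power, minus 1, had a 75th percentile of 45.3 to 45.4 in every library, so they were read as log2(scaled count + 1). The lowest value of a library was taken as 1 read; 64.6 to 67.7% of values were then whole within 0.01 reads, so count models were not used. A gene was tested where 3 libraries had 10 or more reads (at the median depth) and all libraries 15, which kept 17194 of 18539; all 34 members passed. Dates had replaced 23 gene symbols, which stayed unnamed. The test was limma 3.58.1 (R 4.3.3) with a variance trend, Benjamini-Hochberg adjusted over all genes tested. Tested on simulated counts for this comparison (200 of 17194 genes changed, all with a mean of 200 or more reads, dispersion 0.01), it recovered 89.6% of 1.5-fold and 100% of 2-fold changes. The dispersion was set and not estimated, and far more genes were called in the real data. Changes under 1.5-fold, as most members had, were not simulated, so the rates do not cover them. No pair of libraries agreed within sampling noise. Exon lengths and overlaps came from GENCODE release 29 (GRCh38) and promoters from RefSeq (GRCh38.p14). Named genes are MMP9, all members and up to 4 tested genes per list with the smallest adjusted p; others are marked. The member rule is a list of symbols and uses no measured value, but members and lists were chosen with earlier results of these data known. Alternatives were a replicate block, each library left out, 2 other scalings, other filters, limma-voom, pseudocounts of 0.25 and 4, no variance trend and a threshold of 0.01. Figures were drawn with matplotlib 3.10.9.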

Additional observations from a re-analysis of the deposited data

How the results depend on the processing

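All 22 rises among the members, the fall of ERO1A and the fall of MMP9 held under each of the 16 alternatives. The other counts of calls also stayed within 1.5 times their main value, except the number of members that fell, which was 1 and ranged from 1 to 3 when 1 library was left out (3 without shControl replicate 2, 2 without shMMP9 replicate 2), and 14 values of small counts within single roles or lists. The number of members that rose ranged from 22 to 25, reaching 25 with median-of-ratios and with total-read scaling, where PDIA3, SDF2L1 and XBP1 were added; leaving out 1 library gave 22 to 24. The median of all genes moved by 0.04 and 0.05 under these scalings, and the members' median lay 0.39 above it in both, beside 0.38 as reported. Calls of 28 members were the same throughout, and 6 members gained a call under at least 1 alternative. Same-numbered libraries did not deviate together (correlations 0.04, -0.13 and -0.03), so the replicate numbers were not taken to pair samples. With the replicate number as a block, 4211 genes rose and 5486 fell, with 23 and 1 among the members, SDF2L1 being added (adjusted p = 0.0491). Only shMMP9 replicate 1 correlated best with the library of its own number in the other group. MMP9 had a value of -0.69 with the block. Scaled counts are relative to the upper quartile of each library, so a change in RNA per cell cannot be seen.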
